A study of Rattus norvegicus with 24 samples.

Results

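The cytosolic ribosomal protein genes were taken from a count table of messenger RNA in 2 brain regions of male Sprague-Dawley rats. These were the hypothalamic paraventricular nucleus (PVN) and the amygdala's central part (CEA). A row was a member when its symbol was Rpl or Rps followed by a number and at most 1 of the letters a, l, x or y with a further number, or was Rplp0, Rplp1, Rplp2 or Rpsa. The rule found 90 rows of 35032, with 83 symbols, of which 55 rows code for large-subunit proteins and 35 for small-subunit proteins. The libraries fell into 8 groups of 3, 24 in all. In each region the rats were normal controls (NC), rats after partial hepatectomy (HT), rats with the same hepatectomy and electroacupuncture at the Zusanli and Sanyinjiao points (EA), and rats with the hepatectomy and needles at those points but no current (SEA). All 3 operated groups therefore carried the hepatectomy, NC carried none of these, and NC and HT rats were restrained like the needled ones. No label ties a library to an animal, so p-values measure the spread between these libraries only. In bulk tissue, fewer cells with much ribosomal protein messenger RNA and less of it per cell cannot be told apart.

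Each cytosolic ribosome holds 1 copy of nearly every one of these proteins, and their genes are transcribed at high levels in dividing and resting cells alike. The large subunit holds the peptidyl transferase centre and the small subunit reads the message. Most of the messages start with a C followed by a run of pyrimidines, the terminal oligopyrimidine or TOP motif, through which the kinase mTOR and the binding protein LARP1 control their translation. In neurons the same messages also travel into dendrites and axons. Ribosomal protein genes have many processed copies in mammalian genomes, which makes reads hard to place.

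The start sites were read first, since the start is what these genes are known to share. Of the 83 symbols, 63 matched RefSeq promoters of the rat build GRCr8, on 64 promoters. A C at the annotated start followed by at least 4 bases that are each C or T, on the transcribed strand, stood in 20 of these 64 promoters (31.2%), and in 2.63% of all 33469 promoters. Within 5 bases on either side of the annotated start such a run was found in 56.2% of the members' promoters and in 17.0% of all. A window without the run says only that these letters are not there. The following 25 bases run from 10 bases before the annotated start to the 15th base from it, with a run that begins at the start in capitals. They show 5 members with the run, and 2 of the highest members in which no run begins at that base.
Rplp0, chr12:46718376-46718400, minus strand: caccgcacttCTCTCgccaggcgtc
Rpl37a, chr9:81748081-81748105, plus strand: cccgttgcgtCTCTTCCTCTTCggg
Rpl10, chrX:157205840-157205864, plus strand: gtgggagcgtCTCTTTTCCTCTggc
Rps27, chr2:177964592-177964616, minus strand: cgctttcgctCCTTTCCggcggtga
Rpl31, chr9:49143101-49143125, plus strand: atccctcgcgCCTTTCCTTTCCaac
Rpl41, chr7:1563483-1563507, minus strand: ctcggaagtgacgacaccaagcacg
Rps16, chr1:92770648-92770672, plus strand: aaaatcggtcggggtggccccaagc

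Library totals lay between 13152772 and 18607032 counts, and 1 count in the libraries was worth 0.0537 to 0.0760 CPM (counts for each 1000000 of the total). The labelled regions were checked against markers. The 6 PVN neuroendocrine markers summed to 417 to 1333 CPM in PVN libraries and 34.7 to 181 in CEA libraries, and the 7 central amygdala markers to 491 to 600 and 2289 to 5062 CPM, with no marker of either list at 0 in every library. In the test of regions given below, all 6 PVN markers passed as lower in CEA. Of the central amygdala markers 6 passed as higher and 1 as lower, and 56.3% of all genes passed. Of the other lists, choroid plexus markers summed to 1072, 384 and 1806 CPM in CEA NC 2, CEA EA 1 and CEA SEA 2, and the members' median deviation in these 3 libraries was -0.02, -0.02 and 0.02 on the log2 scale. Transcripts of the mitochondrial genome took 7.07 to 8.77% of PVN counts and 10.1 to 14.4% of CEA counts, except in CEA EA 2, where they took 3.80%. CEA EA replicates 2 and 3 are numbered by the sample titles. A second header line within the table exchanges them.

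The members took 1.43% ± 0.241 of all counts (SD, n = 24 libraries). Per length, the highest were Rpl35 at 793 CPM per kb and Rps23 at 742, followed by Rpl41 at 712, Rps21 at 670 and Rps14 at 664. Rpl35 lines the peptide exit tunnel, Rps23 sits at the decoding centre, and Rpl41 is a very short peptide between the subunits. The gaps between neighbours in this order were smaller than the spread over libraries. For Rpl35 that was an SD of 47.1 CPM around 325 CPM in PVN (n = 12). At the low end, Rpl10a and Rpl23a had no count in any of the 24 libraries, which allows at most 0.161 to 0.228 CPM a library, Rpl30l1 had 0.0885 CPM per kb, Rplp2 0.294 and Rpl3l 0.361. Rplp0, Rplp1 and Rplp2 build the stalk of the large subunit that recruits translation factors. Rplp0 had 319 CPM per kb and Rplp1 had no row under this symbol, likewise Rpl22, Rps7, Rps13 and Rps26.

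Genes that every cell uses were thus listed at or near 0, and rows annotated as copies of them held reads. The table has 130 such copy rows by description, of which 87 could be tied to 41 of the members' 79 proteins. For 11 proteins the copies held more CPM than the members. Rplp2 had 0.102 CPM and its 3 copies 67.4 CPM on average, Rps29 had 2.55 and its 3 copies 308 CPM, and Rpl9 had 3.68 and its 3 copies 273 CPM. Rpl37 had 0.494 CPM beside 58.6 on its copy, and Rpl39 had 0.785 beside 51.3 on 6 copies. How reads that fit several places were counted is not given in the sources used here. The levels of these members, of Rps6, Rps12, Rpl8, Rpl36a, Rpl38 and Rpl35a, and of the 12 rows that share a symbol are therefore uncertain. Summing the members and copies of each protein is given below as an alternative.

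Some paralogs were far below the gene they resemble, and others were near it. Per length, Rpl3, at the peptidyl transferase centre, had 121 CPM per kb and its muscle paralog Rpl3l 0.361. Rpl10, which completes the large subunit, had 404 and the testis paralog Rpl10l 4.59. Rps4x on the X chromosome had 137 and Rps4y2 5.85, Rps27 had 385 and Rps27l 16.1, and Rpl7 had 53.6 and Rpl7l1 44.8. Rpl22l1, the paralog of Rpl22, had 127 CPM per kb. Rpl39 and Rpl39l had 5.03 and 1.55. Of the members often used as reference genes, Rplp0 lay between 288 and 569 CPM over the 24 libraries, Rpl13a between 18.7 and 40.8, and Rps18, whose row runs near 13.4 CPM beside 216 on the row named Rps18l1, between 6.27 and 21.5.

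In PVN the members' share of counts was 1.79, 1.33 and 1.65% in NC, 1.32, 1.31 and 1.42% in HT, 1.53, 1.36 and 1.34% in EA and 1.34, 1.29 and 1.33% in SEA. NC 1 and NC 3 stood above every other PVN library, and NC 2 stood within the range of the operated rats. In CEA the share was 1.40, 1.32 and 1.21% in NC, 1.41, 2.36 and 1.49% in HT, 1.41, 1.10 and 1.49% in EA and 1.36, 1.37 and 1.35% in SEA. CEA HT 2 was the highest of all 24 libraries and CEA EA 2 the lowest. The other 10 CEA libraries lay between 1.21 and 1.49%.

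**Figure D1:**
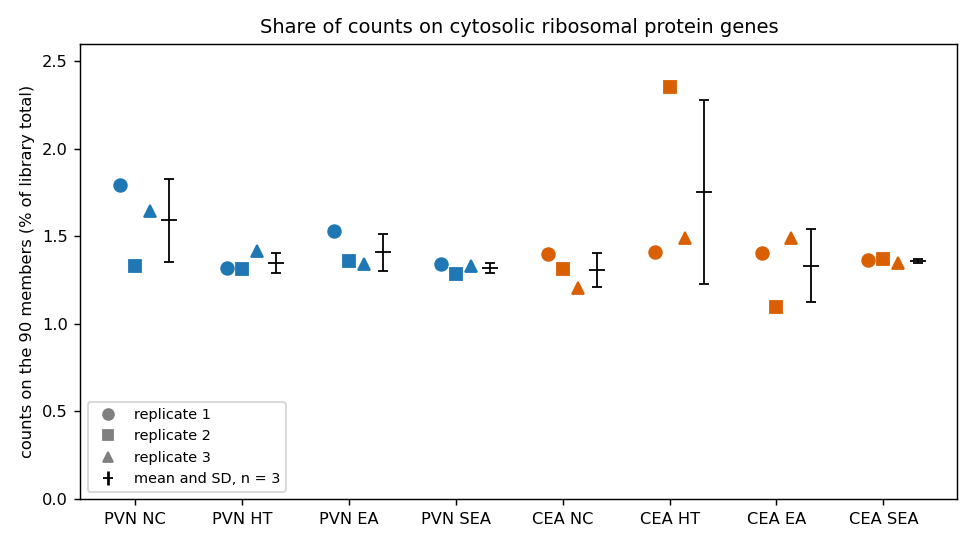
Share of each library's counts on the 90 members, in percent (vertical axis), for the 8 groups (horizontal axis), with blue points for PVN, orange for CEA, 1 shape for each replicate number, and black bars for the mean and SD of 3 libraries. CEA HT 2 at 2.36% and CEA EA 2 at 1.10% are the extremes, and PVN NC 1 and NC 3 at 1.79 and 1.65% lie above the other PVN libraries.

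The 4 libraries that stood apart did so across most members. For each of the 86 members that passed the count filter over 24 libraries, the log2 CPM in a library was compared with the member's median over the 12 libraries of its region. The median deviation was 0.35 in PVN NC 1 and 0.32 in PVN NC 3, and lay between -0.07 and 0.12 in the other 10 PVN libraries. In CEA it was 0.77 in HT 2, a level 1.70 times the region's median, and -0.44 in EA 2, and lay between -0.14 and 0.12 elsewhere. PVN NC 1 held the highest value of the region for 46 of the 86 members and PVN NC 3 for 27. CEA HT 2 held the highest for 68, and CEA EA 2 the lowest for 51. Both subunits took part, with medians of 0.73 for large-subunit and 0.82 for small-subunit members in CEA HT 2, and of -0.47 and -0.36 in CEA EA 2.

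**Figure D2:**
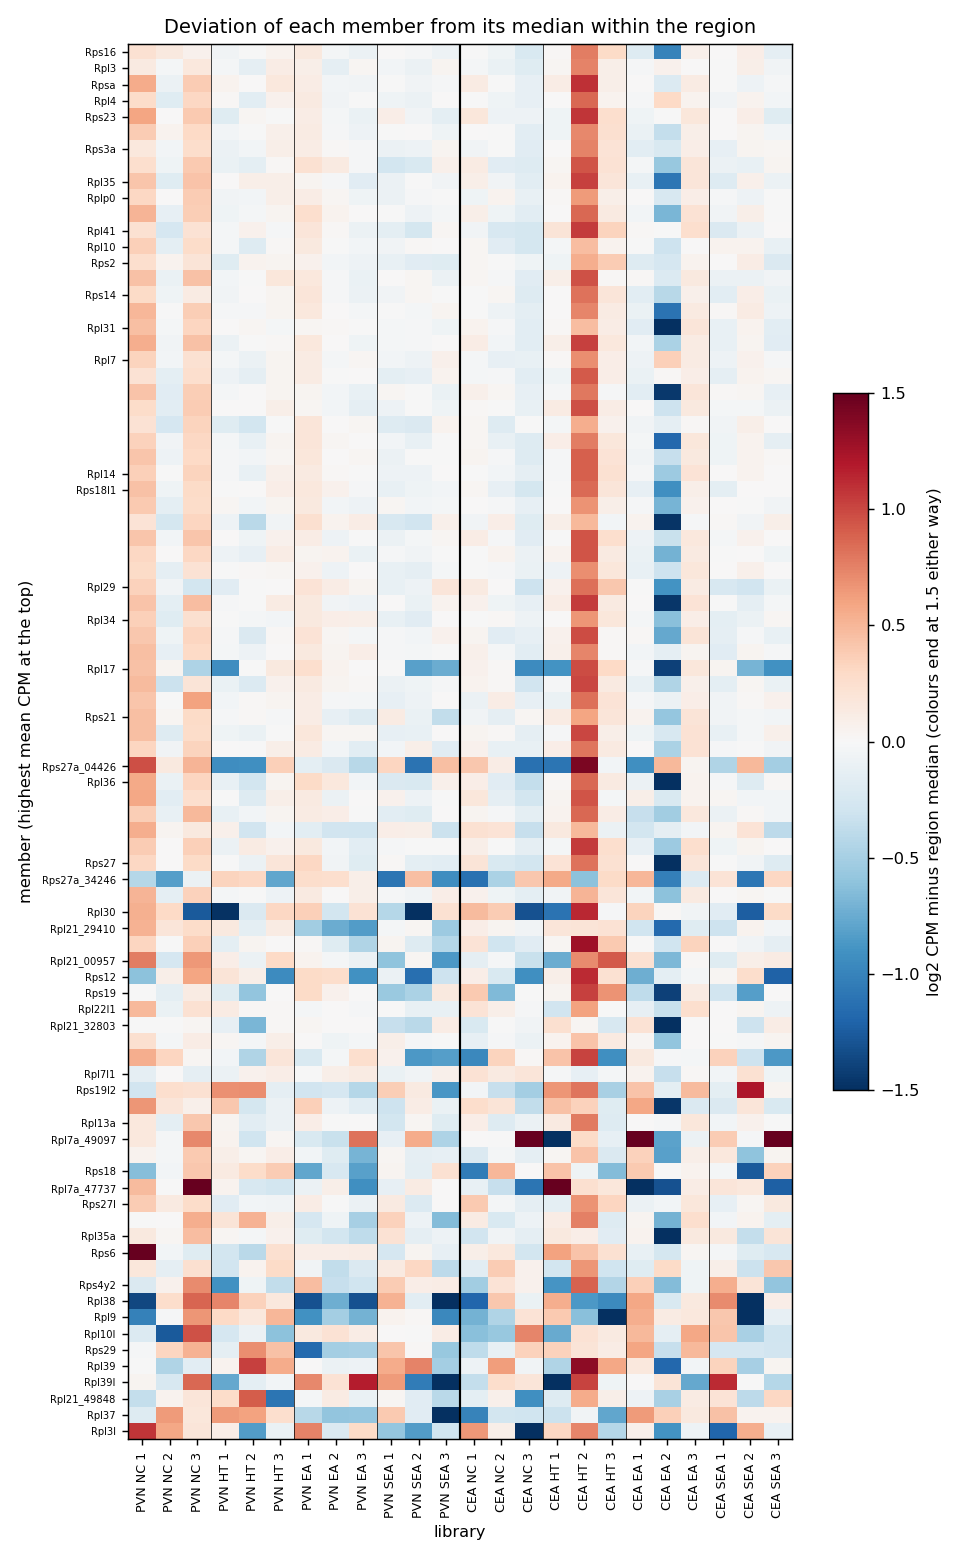
Each row is 1 of the 86 members that passed the count filter, ordered by mean CPM and named where the text gives its values, and each column 1 library; colour gives log2 CPM minus the member's median within its region, red for higher and blue for lower, with colours ending at 1.5 either way. CEA HT 2 is red for 80 of the 86 members, CEA EA 2 is blue for 76 with the deepest values in Rps27, Rpl31 and Rpl35a, and PVN NC 1 and NC 3 are red for 70 and 79.

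In CEA HT 2 the quartiles of the deviation over the 86 members were 0.52 and 0.95, with a range from -0.87 to 1.42. There 65 members lay over 0.5 above their median and 6 below it. Rpsa, a small-subunit protein also known as a laminin receptor, had 854 CPM in CEA HT 2 and 346 to 435 in the other 11 CEA libraries. Rps23 had 793 CPM beside 334 to 451, and Rpl41 had 677 beside 273 to 413. Rps6, the substrate of the S6 kinases, had 6.08 CPM there, inside the 3.71 to 6.92 of the other CEA libraries, and it was among the members whose reads lay mostly on a copy.

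In CEA EA 2 the members spread more widely. Rps27, a zinc-binding protein of the small subunit, had 19.5 CPM there and 115 to 247 in the other CEA libraries. Rpl31, at the mouth of the exit tunnel, had 55.6 beside 304 to 470, Rpl36 42.1 beside 126 to 295, and Rpl35a 1.40 beside 5.96 to 8.75. Against these, Rpl7 had 352 CPM, above every CEA library other than HT 2, and Rpl4 had 461, likewise above all but HT 2. The quartiles were -0.87 and -0.14. The 39 members that fell by over 0.5 had a median length of 554 bases and a median level of 151 CPM, and the other 47 had 662 bases and 160 CPM. Their medians in CEA HT 2 were alike, at 0.76 and 0.78. These genes were picked out after their values were seen, except Rps23, Rpl41, Rpsa and Rps6.

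Members moved together from library to library. After group means were removed, the median correlation over the 3655 pairs of members was 0.42 over the 12 PVN libraries and 0.58 over the 12 CEA libraries, while the median over all pairs of 17768 genes was -0.00095 and 0.00065. These points share library, depth and composition, and the values are a description. The median was 0.23 without PVN NC 2 and 0.44 without CEA HT 2. In both regions 47 members had a median correlation of at least 0.5 with the other members, among them Rpl14. Rpl38, Rpl9 and Rps18 were below 0 in both, and the 3 had mean levels of 4.66, 3.68 and 13.4 CPM.

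Of the members whose values scattered most around their group means, the 2 rows of Rpl7a stood first. One row lay at 109 CPM in CEA HT 1 and between 1.87 and 25.6 in the other 23 libraries. The other row lay at 44.6, 55.6 and 51.2 CPM in CEA NC 3, CEA EA 1 and CEA SEA 3 and between 2.35 and 18.6 elsewhere. Its lowest value, 2.35 CPM, was in CEA HT 1, where the first row was highest. Where the other row was high, the first row had 3.98, 1.87 and 3.63 CPM. Rpl30, the third, is treated below with its copy. Rps6 lay at 31.3 CPM in PVN NC 1 and between 3.71 and 6.92 in every other library.

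For some proteins the sum of the rows varied less between libraries than a single row did. Rps27a, which is made as a fusion with ubiquitin, has a row on chromosome 14 and a row on chromosome 5. In PVN HT 1, HT 2 and HT 3 the first row had 73.8, 74.6 and 182 CPM and the second had 166, 164 and 76.5. Their sums were 240, 238 and 258 CPM. Over the 12 PVN libraries the first row ranged 4.22-fold and the sum 1.63-fold. The same held for Rpl30 and its copy LOC100362027. The Rpl30 row ranged from 34.5 to 146 CPM in PVN, 4.24-fold, and the sum of the protein's rows from 156 to 212, 1.36-fold. In CEA, where HT 2 was the highest of both, the ranges were 5.43-fold and 2.33-fold.

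Low libraries of Rpl30 and of Rpl17, a protein of the exit tunnel, carried the same group and number in both regions. Rpl30 was at 41.9, 36.0 and 34.5 CPM in PVN NC 3, HT 1 and SEA 2, and at 47.3, 54.1 and 49.6 CPM in CEA NC 3, HT 1 and SEA 2, with 74.9 or more in every other library. Rpl17 was at 140, 101, 109 and 114 CPM in PVN NC 3, HT 1, SEA 2 and SEA 3 and at 102, 105, 122 and 105 in CEA NC 3, HT 1, SEA 2 and SEA 3. The only other library of Rpl17 under 190 CPM was CEA EA 2 at 74.3. Across the 12 pairs of libraries with the same group and number, the correlation of deviations between regions was 0.86 for Rpl30, 0.74 for Rpl17 and 0.72 for Rps4y2, and its median was -0.01 over the 86 members and 0.05 over all genes. Only these 3 members (3.49%) were over 0.7, beside 2.26% of all genes. These are descriptions of 12 pairs, and Rpl17 and Rpl30 were chosen after their values were seen. The study's methods say of its brain samples that they came from different animals of 1 batch, without naming the regions or assays meant.

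**Figure D3:**
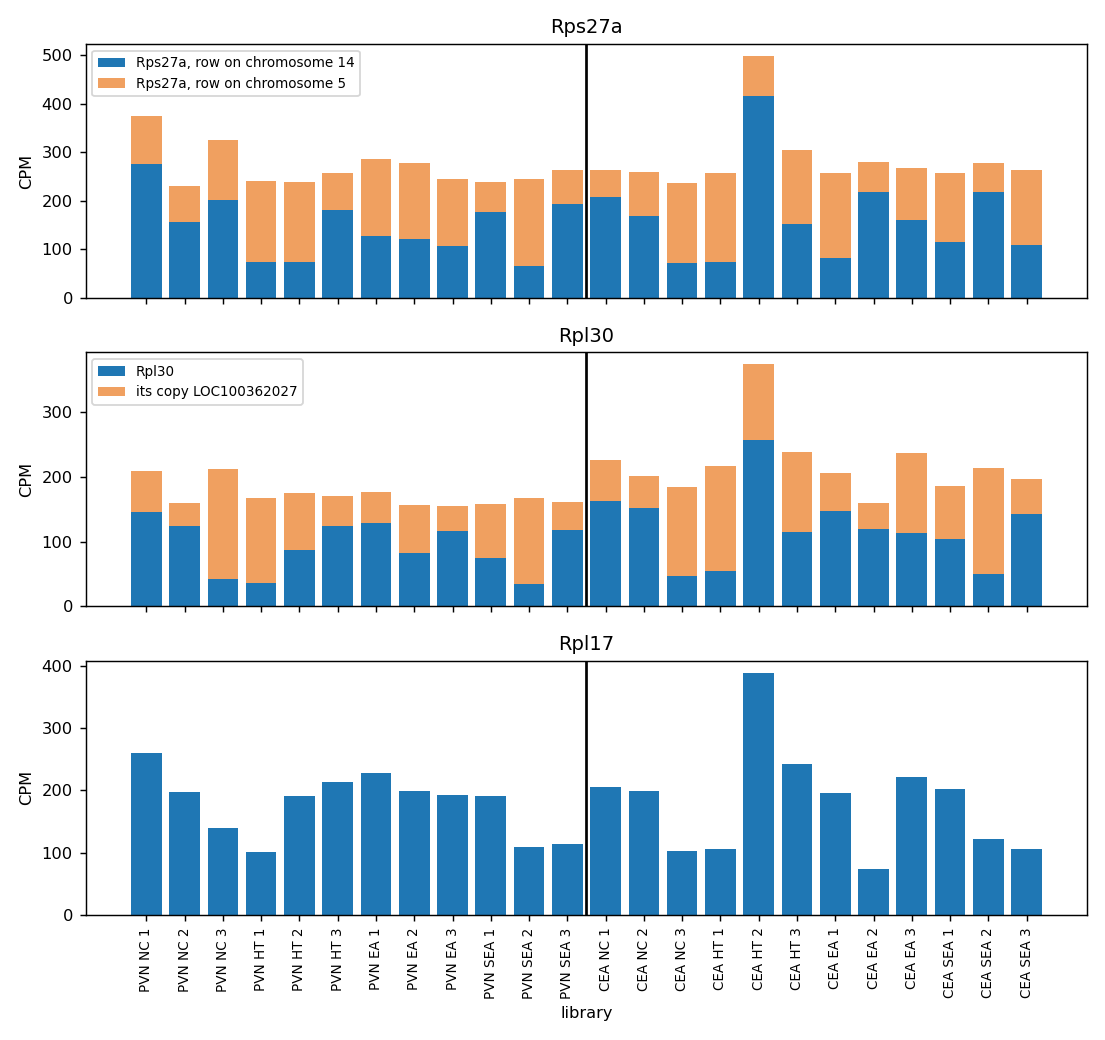
CPM (vertical axes) in the 24 libraries (horizontal axis) for the 2 rows of Rps27a stacked, for Rpl30 stacked with its copy LOC100362027, and for Rpl17. The stacked heights vary less than the blue parts, and Rpl30 and Rpl17 are low in NC 3, HT 1 and SEA 2 of both regions.

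Between regions, 26 of 86 members passed the test, 23 higher and 3 lower in CEA, in a fit over 24 libraries with treatment as a term (edgeR's quasi-likelihood test, Benjamini-Hochberg adjusted p under 0.05 over all genes). Of all 17768 genes tested 56.3% passed, 26.9% higher and 29.4% lower, so the members' share of 30.2% was below the background. The members' median log2 fold change, CEA against PVN, was 0.17, beside -0.01 over all genes. Scaled by total counts alone, 12 members passed (59.8% of all genes), 4 higher and 8 lower, with a median of 0.04 beside -0.15 over all genes, so the split follows the scaling. In the NC libraries alone, 2 of 85 passed (26.4% of all genes) and the median was -0.09. Without CEA HT 2 it was 0.10, with 27 passing (57.9% of all genes), 19 higher and 8 lower. The oligodendrocyte markers summed to 9777 to 16412 CPM in PVN and 25874 to 42977 in CEA, and all 6 of these markers, all 6 microglia markers and the 3 tested vessel markers passed as higher in CEA. Their part in the members' regional difference was not tested.

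Among the members higher in CEA, Rps2, at the entry of the message channel, had 271 CPM ± 27.4 in PVN and 343 ± 60.5 in CEA (SD, n = 12 each), a log2 fold change of 0.34 (SE 0.07, edgeR adjusted p = 0.000376). Rps2 lay between 239 and 322 CPM in PVN and between 279 and 484 in CEA, so the regions overlapped. Rps29, Rpl41, Rps3a and Rplp0 were also higher, with log2 fold changes of 0.74, 0.37, 0.27 and 0.24 and adjusted p from 0.00168 to 0.00842. Rplp0 went from 319 CPM ± 35.1 to 378 ± 64.3. The largest changes were those of Rps29, Rps12 (0.58), Rps19l2 (0.55) and the Rpl21 row on chromosome 12 (0.46). Rps12 ranged from 30.5 to 102 CPM in PVN and from 40.7 to 206 in CEA, and its call was lost in 10 of 32 alternatives, as that of the Rpl21 row was in 9. In the NC libraries alone none of these 8 passed. There Rps2, Rps29, Rpl41, Rps3a and Rps12 had log2 fold changes of 0.11, 0.36, 0.0041, 0.05 and 0.10 (edgeR adjusted p from 0.400 to 0.986), and Rplp0, Rps19l2 and that Rpl21 row were at -0.03, -0.01 and -0.19.

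The 3 members lower in CEA were Rpl10, Rpl22l1 and Rps6. Rpl10 had 339 CPM ± 39.3 in PVN and 280 ± 40.5 in CEA, a log2 fold change of -0.28 (SE 0.08, edgeR adjusted p = 0.00336), and kept its side of the threshold in all 32 alternatives. Rpl22l1 had 78.4 CPM ± 10.2 in PVN and 63.7 ± 11.8 in CEA, a change of -0.30. Rps6 had a change of -0.60 with an adjusted p of 0.049994, and its call was lost in 24 of 31 alternatives. Without PVN NC 1 the change was -0.24 with an adjusted p of 0.0572. Its 7.69 CPM ± 7.47 in PVN overlapped the 4.71 ± 0.998 in CEA.

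The question of the HT and NC comparison was what surgery did in each region. In PVN no member passed of 85 tested, with 2 of 16727 genes passing (0.012%), both higher. At an unadjusted p under 0.05, 12 members stood lower and none higher, beside 11.0% of all genes. The log2 fold change was below 0 for 74 of 85 members and for 51.6% of all genes, and its median was -0.24, beside -0.01 over all genes. With DESeq2, 7 had an unadjusted p under 0.05 (11.3% of all genes) and none passed. Groups did not overlap for 5 members lower and 1 higher in HT, beside 8.23% and 8.88% of all genes. Rps23 had 482, 321 and 422 CPM in NC and 283, 326 and 319 in HT, so NC 1 and NC 3 were high and NC 2 lay inside the range of HT, with a log2 fold change of -0.40 (SE 0.15, edgeR adjusted p = 0.418). Rps27l, a p53 target paralog, had 14.9, 12.5 and 13.8 CPM beside 10.1, 11.05 and 10.98, with no overlap, and a change of -0.36.

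The result of that comparison depended on which NC library was left out. By the members' share of counts, NC 1 and NC 3 stood above the HT libraries and NC 2 among them. Without both NC 1 and NC 3 the share difference, HT minus NC, was 0.0152 percentage points. Without PVN NC 2, 45 of 85 members passed, all lower in HT, beside 7.56% of all 16939 genes tested in that fit. The members' median was then -0.36, and Rps23 had an edgeR adjusted p of 0.00728. Without NC 1 or NC 3 none passed, and the median was -0.15 and -0.18. The nuclear oxidative phosphorylation genes deviated with the members, at a median of 0.34 in both PVN NC 1 and NC 3. In these libraries genes of at least 4 kb that are no members had a median deviation of -0.15 each, and those under 1 kb of 0.11 and 0.07. The vessel markers deviated by -0.50 and -0.29, with 1 of the 4 found, Cldn5, at 0 in every library. The PVN neuroendocrine markers summed to 1002 to 1333 CPM in NC and 417 to 953 in HT, with 5 of 6 lower and a median log2 fold change of -0.57, and the thalamus markers to 301 to 513 and 480 to 661 CPM, with 4 of 4 higher and a median of 0.84. None of these markers passed. The part of all these in the result was not tested.

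In CEA no member passed of 85 between HT and NC, and no gene of 16413 did (0.0%), with DESeq2 calling 24 genes and no member. At an unadjusted p under 0.05, 9 members stood higher and none lower with edgeR, beside 3.75% of all genes, and 18 with DESeq2 (4.12% of all genes). The log2 fold change was above 0 for 80 of 85 members and for 52.4% of all genes, with a median of 0.45 beside 0.02 over all genes. Without CEA HT 2 the median was 0.15, with 74 of 85 members above 0. The choroid plexus markers were lower in HT in 4 of 4 (median -2.60, 2 at an unadjusted p under 0.05), with sums of 14.3 to 1072 CPM in NC and 6.66 to 26.4 in HT, and the thalamus markers in 4 of 4 (-0.46), at 139 to 909 and 44.8 to 820 CPM. The nuclear oxidative phosphorylation genes were higher in 69 of 76 (0.25). None of these passed, and their part in the members' values was not tested. Groups did not overlap for 19 members higher and 1 lower in HT, beside 4.72% and 5.69% of all genes. Rpl41 had 317, 278 and 273 CPM in NC and 375, 677 and 413 in HT, all HT libraries above all NC ones (log2 fold change 0.78, SE 0.23, edgeR adjusted p = 0.918), and the change was 0.48 without HT 2. A row of Rpl7a had 7.98, 6.74 and 3.98 CPM in NC and 109, 10.2 and 9.67 in HT, a change of 2.82 that rests on HT 1 and was 0.69 without it.

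EA and SEA were each compared with HT, which they share as the reference, and with each other, to separate the current from the needles. In PVN no member of 83 passed for EA against HT, where 0.0961% of 16641 genes did, all lower. The median over members was 0.04, with 56 of 83 above 0 beside 50.2% of all genes. Without PVN EA 1 it was -0.02, with 35 of 85 above 0. The PVN neuroendocrine markers were higher in EA in 6 of 6 (median log2 fold change 0.44, 3 at an unadjusted p under 0.05), with sums of 417 to 953 CPM in HT and 896 to 1121 in EA, and the thalamus markers lower in 4 of 4 (-0.36). None of these passed, and their part was not tested. For the members, at an unadjusted p under 0.05, 9 stood higher and 7 lower (5.67% of all genes). The Rpl21 row on chromosome 13 had 104, 84.7 and 103 CPM in HT and 65.6, 56.4 and 52.7 in EA, every EA library below every HT one (log2 fold change -0.74, SE 0.11, edgeR adjusted p = 0.0622). Rpl38 had 7.18, 5.46 and 4.77 CPM in HT and 1.65, 2.53 and 1.65 in EA, again with no overlap (-1.57, SE 0.25, edgeR adjusted p = 0.0872). It had 1.58, 5.15 and 7.91 CPM in NC and 6.17, 3.82 and 1.33 in SEA, so NC 1 and SEA 3 lay below every EA library. That Rpl21 row had 135, 107 and 114 CPM in NC and 92.0, 96.4 and 64.3 in SEA, with SEA 3 inside the range of EA. With DESeq2 91 genes passed, 84 of them lower (0.505% of all genes), and 4 were members, all lower, these 2 among them with adjusted p of 3.42e-08 and 0.000237. Groups did not overlap for 9 members higher and 11 lower in EA, beside 5.41% and 5.85% of all genes.

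Most annotated copies had values below 0 there. Of 79 copy rows tested 4 passed (5.06%), all lower in EA, beside 0.0961% of all genes. A log2 fold change below 0 was found for 55 of the 79, with a median of -0.26, while 50.2% of all genes were above 0. For PVN SEA against HT, 54 of 81 copy rows were below 0, with a median of -0.11, and none passed. Rows summed per protein gave 1 called protein of 78, lower in EA. The Rpl10a sum, which lies wholly on 2 copies, was 14.8, 14.5 and 13.01 CPM in HT and 6.28, 6.01 and 5.37 in EA. LOC100363537, the copy with nearly all of these reads, had 15.2, 8.39 and 7.85 CPM in PVN NC and 10.5, 7.18 and 3.94 in PVN SEA. SEA 3, without current, was below every EA library. Rpl10a was chosen after its values were seen.

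In PVN SEA against HT no member of 83 and no gene of 16634 passed (0.0%; DESeq2 called 21 genes and no member), the median was -0.03 with 60 of 83 members below 0 (49.8% of all genes), and 2 members had an unadjusted p under 0.05 with edgeR (4.38% of all genes) and 1 with DESeq2 (2.65%). Without PVN HT 3 the median was 0.00047, with 42 of 85 members below 0. The PVN neuroendocrine markers were higher in SEA in 6 of 6 (median 0.36, 2 at an unadjusted p under 0.05), at 903 to 1174 CPM, and none passed. Rps4y2 had 3.17, 5.78 and 4.65 CPM in HT and 7.91, 6.47 and 6.54 in SEA, with no overlap, and the Rpl21 row on chromosome 12 had 75.9, 67.0 and 87.6 beside 46.8, 72.5 and 39.2 with overlap. Groups did not overlap for 2 members higher and 8 lower in SEA, beside 5.1% and 4.74% of all genes. In PVN EA against SEA no member of 82 and no gene of 16606 passed with edgeR (0.0%), 14 members had an unadjusted p under 0.05 (5.21% of all genes), and with DESeq2 24 genes, 1 of them a member lower in EA, passed and 15 members (3.67% of all genes) had such a p. The median was 0.06 with 65 of 82 members above 0 (49.7% of all genes), but 0.00017 with 42 of 83 above 0 without PVN EA 1. The vessel markers were lower in EA in 3 of 3 (median -0.27, 1 at an unadjusted p under 0.05), the thalamus markers in 4 of 4 (-0.12) and the microglia markers in 5 of 6 (-0.19). None of these passed, and their part was not tested. With all libraries, 13 members stood wholly higher and 2 wholly lower in EA, beside 5.14% and 5.02% of all genes. Rpl34 had 158, 151 and 170 CPM in SEA and 189, 182 and 180 in EA, all EA libraries above all SEA ones (log2 fold change 0.20, SE 0.06, edgeR adjusted p = 0.917). Rps18, of the small subunit's head, had 12.5, 10.9 and 14.2 in SEA and 6.98, 10.3 and 6.81 in EA.

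In CEA no member of 85 and no gene of 16479 passed for EA against HT (0.0%; DESeq2 called 5 genes and no member). The log2 fold change was below 0 for 78 members and 52.5% of all genes, with a median of -0.47 beside -0.02 over all genes, and 4 members, all lower, had an unadjusted p under 0.05 (3.19% of all genes; 13 members and 3.54% of all genes with DESeq2). The median was -0.20 without HT 2, -0.33 without EA 2 and -0.03 without both. The cortex and hippocampus excitatory markers summed to 8.88 to 336 CPM in HT and 25.4 to 106 in EA, with 4 of 4 tested lower and a median of -1.65, and 22 of 24 transcripts of the mitochondrial genome were lower with a median of -0.52. The nuclear oxidative phosphorylation genes were lower in 70 of 76 (-0.35) and the central amygdala markers in 6 of 7 (-0.31), with sums of 3652 to 5029 CPM in HT and 2332 to 3302 in EA. The choroid plexus markers were higher in 4 of 4 (1.80), with sums of 6.66 to 26.4 and 11.3 to 384 CPM. None of these passed, and their part in the members' values was not tested. Groups did not overlap for 6 members lower and 1 higher in EA, beside 4.03% and 5.54% of all genes. The Rpl21 row on chromosome 13 had 128, 129 and 131 CPM in HT and 91.6, 50.1 and 99.4 in EA, with no overlap (log2 fold change -0.70, SE 0.25, edgeR adjusted p = 0.930), and the change was -0.45 without EA 2. The Rpl7a row high in HT 1 fell by 3.14 on the log2 scale, and by 1.03 without HT 1.

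In CEA SEA against HT no member of 84 and no gene of 16393 passed (0.0%; DESeq2 called 3 genes and no member), with 78 members below 0 (53.9% of all genes) and a median of -0.41 that was -0.13 without HT 2. The choroid plexus markers were higher in 4 of 4 (median 3.08, 3 at an unadjusted p under 0.05), with sums of 6.66 to 26.4 CPM in HT and 8.77 to 1806 in SEA. The cortex and hippocampus excitatory markers were lower in 5 of 5 (-0.93), the nuclear oxidative phosphorylation genes in 71 of 76 (-0.29) and the transcripts of the mitochondrial genome in 21 of 24 (-0.27). None of these passed, and their part was not tested. For the members, at an unadjusted p under 0.05, 10 members stood lower and none higher (3.07% of all genes; 15 members and 3.2% of all genes with DESeq2). Groups did not overlap for 21 members lower and 0 higher in SEA, beside 3.87% and 6.22% of all genes. Rpl29 had 231, 391 and 291 CPM in HT and 187, 180 and 205 in SEA, every SEA library below every HT one. Rps19, a protein known from Diamond-Blackfan anaemia, had 80.3, 159 and 125 CPM beside 63.7, 44.1 and 78.4, also with no overlap (log2 fold change -1.003, SE 0.30, edgeR adjusted p = 0.959). In CEA EA against SEA no member of 83 and no gene of 16322 passed (0.0%; DESeq2 called 5 genes and no member), and no member had an unadjusted p under 0.05 with either tool (1.99% of all genes with edgeR and 1.75% with DESeq2). The median was -0.06 with 53 of 83 members below 0 (48.8% of all genes), and 0.09 without EA 2. The choroid plexus markers were lower in EA in 5 of 5 (median -1.35) and the cortex and hippocampus excitatory markers in 3 of 3 (-0.61). The transcripts of the mitochondrial genome were lower in 21 of 24 (-0.20) and the central amygdala markers in 6 of 7 (-0.16). None of these passed, and their part was not tested. Groups overlapped for all 83 members, beside 3.01% of genes wholly higher and 3.82% wholly lower. Rps29 had 2.51, 2.51 and 2.44 CPM in SEA and 4.61, 2.34 and 4.25 in EA, and Rpl41 had 283, 309 and 328 beside 331, 328 and 391.

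**Figure D4:**
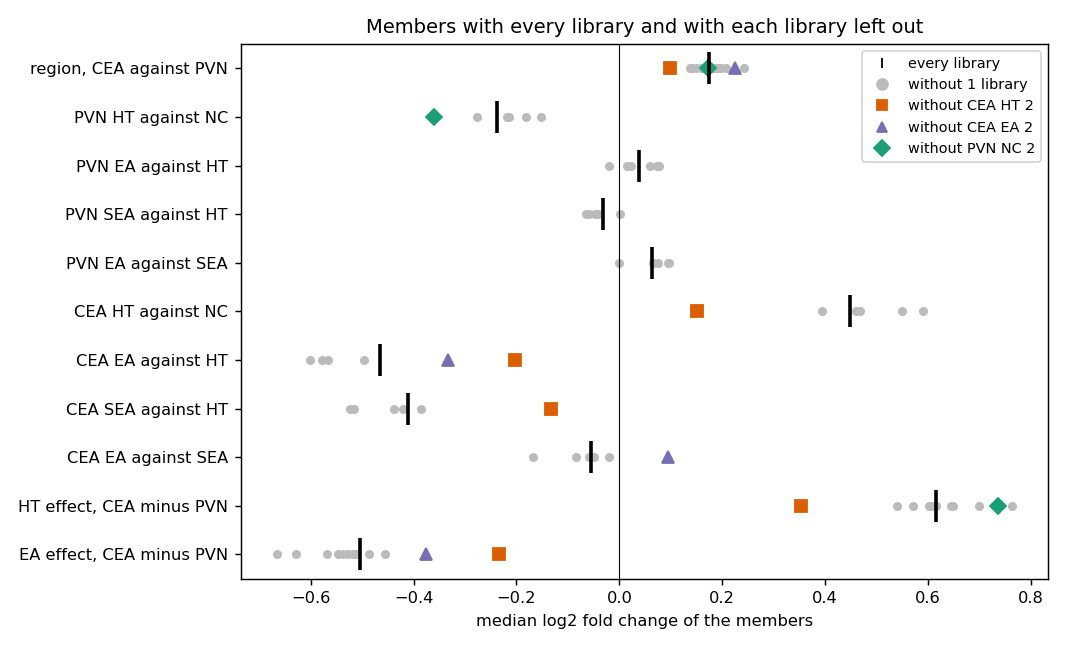
Median log2 fold change over the members (horizontal axis) in 11 comparisons (vertical axis), with black bars for all libraries, grey points for each library left out, orange squares without CEA HT 2, purple triangles without CEA EA 2 and green diamonds without PVN NC 2. Each CEA comparison with HT moves towards 0 without CEA HT 2, from 0.45 to 0.15 for HT against NC, and the PVN comparison of HT with NC moves from -0.24 to -0.36 without PVN NC 2.

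Whether the response differed between regions was tested with an interaction term. For HT against NC no member of 86 and no gene of 17405 passed (0.0%; DESeq2 called 1 gene and no member). At an unadjusted p under 0.05 stood 40 members, 39 of them with the more positive change in CEA, beside 12.1% of all genes, and 54 with DESeq2 (13.6% of all genes). The median difference, CEA minus PVN, was 0.62, above 0 for 78 members and 51.1% of all genes, beside a median of 0.01 over all genes, and 0.35 without CEA HT 2. The same difference was above 0 for 70 of 76 nuclear oxidative phosphorylation genes (median 0.46, 19 at an unadjusted p under 0.05), and below 0 for 5 of 5 choroid plexus markers (-2.79, 2 at such a p) and 4 of 4 thalamus markers (-1.36). None of these passed, and their part was not tested. Rps21, of the small subunit, had 198, 148 and 177 CPM in PVN NC, 144, 147 and 144 in PVN HT, 169, 160 and 179 in CEA NC and 191, 264 and 199 in CEA HT, lower after surgery in PVN and higher in CEA with no overlap in either (difference 0.63, SE 0.20, edgeR adjusted p = 0.413). For EA against HT no member of 86 and no gene of 17299 passed (0.0%; DESeq2 called 49 genes and no member), 17 members had an unadjusted p under 0.05 (4.52% of all genes; 21 members and 4.82% of all genes with DESeq2), and the median was -0.50, below 0 for 75 members and 52.7% of all genes, or -0.09 without CEA HT 2 and CEA EA 2. That difference was below 0 for 68 of 76 nuclear oxidative phosphorylation genes (-0.37), for 23 of 24 transcripts of the mitochondrial genome (-0.51) and for 4 of 4 cortex and hippocampus excitatory markers (-1.60), and above 0 for 4 of 5 choroid plexus markers (2.32). None of these passed, and their part was not tested. Rpl38 and Rpl37 had differences of 2.02 and 2.23, at levels of 1.65 to 8.06 CPM and 0.211 to 1.01 CPM.

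Genes tied to ribosomes by function were set beside the members. The 4 tested rows of other cytosolic ribosomal proteins that the name rule leaves out had median deviations of 0.35 in both PVN NC 1 and NC 3, 0.54 in CEA HT 2 and -0.36 in CEA EA 2. Rack1, a scaffold on the small subunit, had 274 CPM in CEA HT 2 beside 157 to 174 in the other CEA libraries. Fau, made as a fusion with Rps30, had 0.753 to 2.68 CPM over all libraries, with deviations of -0.11 in PVN NC 1, 0.34 in PVN NC 3, 0.03 in CEA HT 2 and 0.54 in CEA EA 2. Translation factors with TOP messages (14 tested) deviated by 0.23, 0.15, 0.46 and -0.09 in the same order. Of these, Eef1b2 had 183 CPM in CEA HT 2 beside 86.6 to 114, and Eef1a1 had 2349 beside 1487 to 2004. No gene of these lists passed in any comparison of treatments, and between regions 4 TOP factors were higher and 5 lower in CEA of 14, and 1 of the 4 other ribosomal genes was higher. That was 64.3% and 25% of the 2 lists, beside 56.3% of all genes.

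Lists of other functions were set beside them as well. The 70 mitochondrial ribosomal protein genes tested deviated by 0.28, 0.27, 0.54 and -0.14 in PVN NC 1, NC 3, CEA HT 2 and CEA EA 2, and the 76 nuclear oxidative phosphorylation genes by 0.34, 0.34, 0.61 and -0.12. Other translation factors (36 tested) deviated by 0.10, 0.02, 0.29 and -0.003, and ribosome assembly factors (38 tested) by 0.10, 0.11, 0.24 and -0.06. The 23 mTOR and Myc regulators deviated by -0.16, -0.03, 0.006 and 0.0003. Mtor had 75.3 CPM in CEA HT 2 beside 92.9 to 110 in the other CEA libraries, and Larp1 had 60.6 and 73.7 CPM in PVN NC 1 and NC 3 beside 101 to 122 in the other PVN libraries. No gene of these 5 lists passed in any comparison of treatments. In the region comparison 17 mitochondrial ribosomal genes were higher and 9 lower in CEA, 32 nuclear oxidative phosphorylation genes higher and 1 lower, 5 and 9 other translation factors, 6 and 15 assembly factors, and 9 and 3 regulators. In that order 37.1, 43.4, 38.9, 55.3 and 52.2% of the lists passed, beside 56.3% of all genes (26.9% higher and 29.4% lower).

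The members were also split by the pyrimidine run at the annotated start. The medians with and without it were 0.75 and 0.76 in CEA HT 2, 0.31 and 0.35 in PVN NC 1, 0.32 and 0.30 in PVN NC 3, and -0.57 and -0.35 in CEA EA 2. By length, in CEA HT 2 the 64 members under 1 kb had a median deviation of 0.74 and the 16 of 1 to 2 kb of 0.77, while other genes of these lengths had 0.16 and 0.17 and those of at least 4 kb -0.27. In CEA EA 2 the transcripts of the mitochondrial genome deviated by -1.94 beside the members' -0.44, and other genes under 1 kb by -0.08. These values were not tested.

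**Figure D5:**
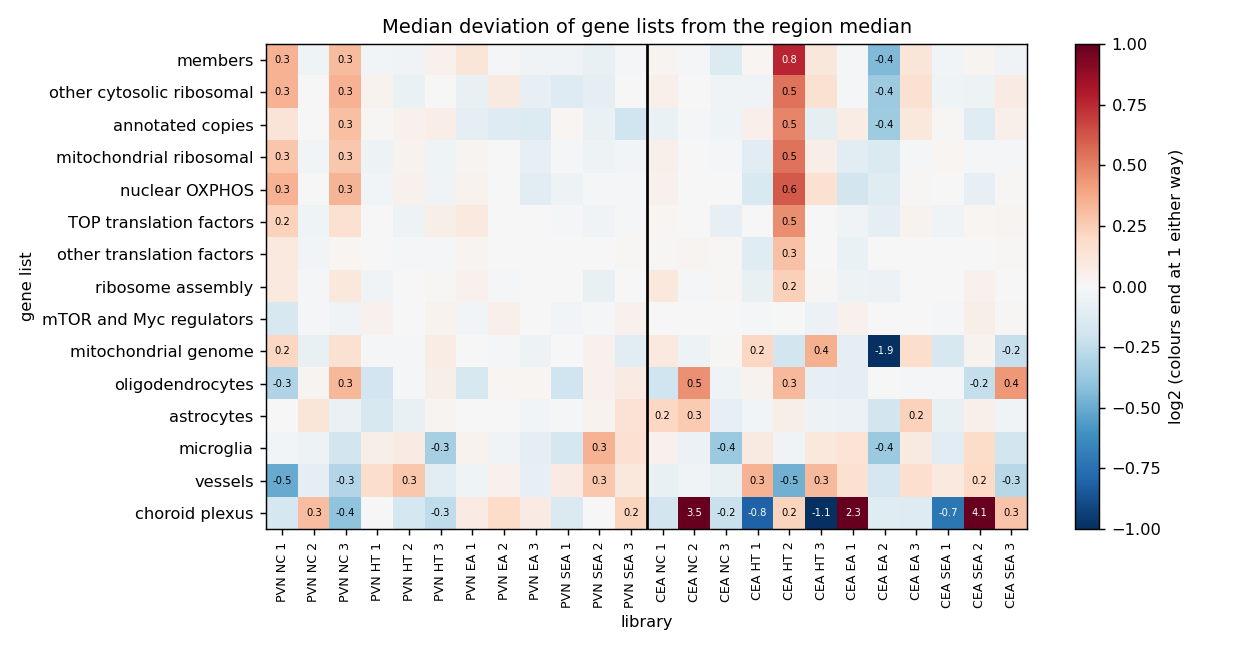
Median deviation of each gene list (rows) from the region median in the 24 libraries (columns), on the log2 scale, red for higher and blue for lower, with values of 0.2 or more either way printed and colours ending at 1. The members, other ribosomal, mitochondrial ribosomal and nuclear OXPHOS (oxidative phosphorylation) lists are red together in PVN NC 1, PVN NC 3 and CEA HT 2, while mTOR and Myc regulators stay near 0 in CEA HT 2, and the mitochondrial genome stands at -1.94 in CEA EA 2.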

How the data were processed

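Messenger RNA was sequenced from 24 libraries, 3 in each of 8 groups. Per the methods, the authors made strand-specific libraries, aligned reads with HISAT2 and counted them per gene with featureCounts, and deposited raw counts for 35032 genes, of which 2149 are unnamed predicted transcripts. Versions and the handling of reads that fit several places are not given in the sources used here. The methods name the rat build mRatBN7.2, the submitters' processing notes name a human one, and the table names none, so none of its coordinates are printed. Groups came from sample titles. No 2 libraries held identical counts.

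Counts were tested with edgeR 4.0.16 in R 4.3.3 (quasi-likelihood test, filterByExpr, TMM scaling, Benjamini-Hochberg adjustment over all genes tested, threshold 0.05), using the groups compared, or treatment plus region over all libraries. The script was tested on simulated data. Library totals of 13152772 to 18607032 set the precision, at 0.0537 to 0.0760 CPM for 1 count. CPM values use TMM library sizes. Deviations are log2 CPM with a prior count of 2. Alternatives were DESeq2 1.42.0, its size factors, total counts, no mitochondrial transcripts, no filter, a replicate block, other sample sets, single libraries left out and unadjusted p. Rows summed per protein, and leaving out CEA HT 2 and CEA EA 2 together, were added after the data were seen. Python 3.11.15 was used for the rest.

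The members and lists were chosen with earlier results of these data known. Named members were the called ones with the smallest p (up to 6 each way for region, 4 otherwise) or the largest change (up to 4 each way for region, mean of at least 1 CPM), or, with none called, the 2 with the smallest p. To these came the 5 highest and 5 lowest per length, the 3 with the largest residual SD, Rplp0, Rplp1, Rplp2, Rpsa, Rpl13a, Rps18, Rps6 and the paralog pairs. Results for some of these genes are not reported here. Titles share replicate numbers across groups. Same-numbered libraries deviated together in every pair, with correlations over 0.1, only between CEA HT and NC (0.18 to 0.29) and between regions in NC (0.13 to 0.29).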

Additional observations from a re-analysis of the deposited data

Results flagged for a closer look

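The members' share of counts moved in opposite directions after surgery in the 2 regions. HT minus NC was -0.243 percentage points in PVN and 0.444 in CEA. Without CEA HT 2 the CEA value was 0.142. Without PVN NC 1 the PVN value was -0.142, and without PVN NC 1 and NC 3, the higher NC libraries there, it turned to 0.0152. These settings were chosen after seeing the data, and the difference of the shares was not tested.

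By single members, 45 of 86 (52.3%) lay below the NC mean in every PVN HT library and above it in every CEA HT library, as did 5.87% of all genes. The reverse held for 1 member and 9.03% of all genes. PVN NC 1 and NC 3 raise the PVN NC mean. Leaving out 1 library gave 33 to 55 members, and without both of these it was 3 members (3.49%) beside 2.66% of all genes. Of 85 members, 5 lay wholly below NC in PVN HT, beside 8.23% of all genes. Relative to the HT mean, 24 of 86 members (27.9%) lay above it in every PVN EA library and below it in every CEA EA library, beside 3.82% of all genes, and 4 members (4.65%) showed the reverse, beside 4.54% of all genes. CEA HT 2 raises the CEA HT mean here, and without it 6 members (6.98%) met the first pattern, beside 3.17% of all genes. The interaction test itself called 0 of 86 members in either contrast with edgeR and with DESeq2. At an unadjusted p under 0.05 by edgeR stood 40 and 17 members, beside 12.1% and 4.52% of all genes.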

How the results depend on the processing

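In the region comparison 12 members passed with total counts alone (59.8% of all genes) and 2 with NC libraries only (26.4% of all genes), where the median was -0.094 and Rplp0, Rps19l2 and the Rpl21 row on chromosome 12 turned to -0.026, -0.0064 and -0.19. Leaving out each library gave 19 (without PVN HT 1, of 9785 genes, or HT 3, of 9756) to 36 (without CEA EA 2, of 10129). Without PVN NC 2, 45 members passed as lower for PVN HT against NC, beside 7.56% of all genes, and 0 without any other single library. For PVN EA against HT, 4 passed with DESeq2 (of 91 genes), 3 with no filter (of 69), 1 with rows summed (of 14), and 0 to 2 with a library left out (2 of 28 without PVN HT 3). For PVN EA against SEA, 1 passed with DESeq2 (of 24) and 0 to 1 with a library left out (1 of 4 without PVN SEA 1, 1 of 1 without SEA 2). For the EA interaction 0 to 1 passed (Rpl38, 1 of 19 genes, without CEA HT 1). At an unadjusted p under 0.05 the counts were 12, 16, 2 and 14 for HT against NC, EA against HT, SEA against HT and EA against SEA in PVN, beside 11.0, 5.67, 4.38 and 5.21% of all genes. They were 9, 4 and 10 for the first 3 in CEA (3.75, 3.19 and 3.07% of all genes), and 40 and 17 for the interactions (12.1 and 4.52%). Leaving out a library moved the median to between -0.36 (without PVN NC 2) and -0.15 (without PVN NC 1) for PVN HT against NC, between -0.020 (without PVN EA 1) and 0.076 for PVN EA against HT, between -0.064 and 0.00047 (without PVN HT 3) for PVN SEA against HT, between 0.00017 (without PVN EA 1) and 0.096 for PVN EA against SEA, between -0.17 and 0.095 (without CEA EA 2) for CEA EA against SEA, between 0.15 (without CEA HT 2) and 0.59 for CEA HT against NC, between 0.35 (without CEA HT 2) and 0.76 for the HT interaction, and between -0.66 and -0.23 (without CEA HT 2) for the EA interaction. Without CEA HT 2 and CEA EA 2 it was -0.034 for CEA EA against HT and -0.085 for the EA interaction. Without PVN NC 1 and NC 3 the PVN share difference, HT minus NC, turned to 0.015. The median pairwise correlation ranged from 0.23 to 0.48 in PVN and from 0.44 to 0.62 in CEA. Without mitochondrial transcripts the share was 1.46, 1.53 and 1.43% in PVN HT, EA and SEA and 1.49 and 1.53% in CEA NC and SEA, and with copies 1.85, 1.58, 1.64 and 1.54% in PVN NC, HT, EA and SEA and 1.54, 1.58 and 1.61% in CEA NC, EA and SEA, by construction. With a replicate block 22 members passed for region, 19 higher and 3 lower, beside 54.7% of all genes, and none in any other comparison. The causes of the other shifts were not tested. Depth limits Rpl37, Rpl38, Rpl39 and Rps29, with means of 0.494 to 4.66 CPM.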
